A study of Mus musculus with 8 samples.

Results

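Mitochondrial protein import genes were taken by symbol: every gene whose name begins with Timm or Tomm followed by a digit. This gave 25 of the 24516 genes counted, 11 Tomm genes, named for the translocase of the outer membrane, and 14 Timm genes, named for the translocases of the inner membrane. RNA came from adult mouse hearts at postnatal day 40, taken from 1 litter, and was sequenced in bulk. A conserved enhancer of Actn2, the gene of the Z-disc protein alpha-actinin 2, had been removed with CRISPR/Cas9 from 1 allele in 3 heterozygotes and from both alleles in 3 homozygotes, and 2 wild-type animals kept both. The labels name no strain, founder line or sex. Comparing either deletion genotype with wild type asks how heart RNA differs when the enhancer is missing.

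Nearly all mitochondrial proteins are encoded in the nucleus, made in the cytosol and imported. The TOM complex of the outer membrane is the common entry gate: Tomm20, Tomm22 and Tomm70a act as receptors, Tomm40 forms the channel, and the small subunits Tomm5, Tomm6 and Tomm7 support its assembly. Proteins with a presequence then pass through the TIM23 complex of the inner membrane, drawn in by a motor anchored at Timm44, while metabolite carriers are guided across the intermembrane space by small TIM chaperones and inserted by the TIM22 complex. In cardiomyocytes, which are rich in mitochondria, this route supplies the respiratory chain.

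The promoters of 3 genes are shown, picked by their fold changes. Tomm70a and Timm23 had higher levels in both deletion genotypes under every alternative analysis. Timm13 had the most negative fold change among the genes that passed the test. It did not pass after the correction for transcript properties given below (-0.22 in homozygotes and -0.24 in heterozygotes, adjusted p = 0.241 and 0.203). Each sequence is the 250 bases before the RefSeq start site (GRCm38.p6, the mm10 build), read 5′ to 3′ on the strand of the gene. They lie at chr16:57121464-57121713 (plus strand), chr14:32201892-32202141 (minus strand) and chr10:80900970-80901219 (minus strand). Capitals mark an ETS core (CGGAAG, or CTTCCG on the other strand) in Tomm70a and Timm23 and an NRF1 core (GCATGCGC, or GCGCATGC on the other strand) in Timm13.
Tomm70a: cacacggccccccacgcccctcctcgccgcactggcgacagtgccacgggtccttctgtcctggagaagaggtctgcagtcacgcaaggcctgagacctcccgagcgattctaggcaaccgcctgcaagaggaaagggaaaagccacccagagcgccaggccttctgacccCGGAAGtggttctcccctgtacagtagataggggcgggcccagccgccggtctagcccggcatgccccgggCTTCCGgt
Timm23: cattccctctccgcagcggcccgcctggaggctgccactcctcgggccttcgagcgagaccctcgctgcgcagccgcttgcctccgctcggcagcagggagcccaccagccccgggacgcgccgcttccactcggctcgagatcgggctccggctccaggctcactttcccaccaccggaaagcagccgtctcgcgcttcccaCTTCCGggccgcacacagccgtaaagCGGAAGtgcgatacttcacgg
Timm13: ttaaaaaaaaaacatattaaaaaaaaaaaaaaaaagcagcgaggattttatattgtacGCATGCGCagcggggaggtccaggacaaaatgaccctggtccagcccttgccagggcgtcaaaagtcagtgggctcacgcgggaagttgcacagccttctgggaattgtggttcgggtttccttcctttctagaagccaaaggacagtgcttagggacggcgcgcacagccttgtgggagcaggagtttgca

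RefSeq promoters were at hand for 22 of the 25 genes (Tomm7, Tomm40l and Timm21 had no entry). ETS factors and NRF1 are known regulators of nuclear genes for mitochondrial proteins. An ETS core stood in 9 of the 22 (40.9%), against 15.3% of 27025 genes with windows of the same length, and an NRF1 core in 1 of the 22 (4.55%), against 2.56%. The CCAAT box (CCAAT or ATTGG) stood in 7 (31.8%, against 37.5%). The motif of oestrogen-related receptors (AAGGTCA or TGACCTT) stood in 1, Timm8b, against 4.70% of all genes, and the YY1 core (AAGATGGC or GCCATCTT) in 0, against 1.83%. ETS cores occurred 2 times each in the windows of Tomm70a and Timm23, whose levels were higher in deletion hearts, and also 2 times in that of Timm10b, whose level was lower. The 27025 genes were not limited to those expressed in these hearts. Shares among expressed genes, or among windows of like GC content, were not computed, so the excess of ETS cores may not be particular to import genes. These matches describe letters in a window, and no relation to the levels was tested.

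Levels are given as CPM, counts scaled to library size with TMM factors, with the SD between libraries. Enough counts for a test were found for 24 of the 25 genes. Timm8a2 had 2 counts in wild type 2, 2 in heterozygous 2 and 0 in the other 6 libraries. Tomm6os, an RNA antisense to Tomm6, is counted with the Tomm genes because of its symbol. A gene was called where edgeR's quasi-likelihood test gave a Benjamini-Hochberg adjusted p under 0.05 over all 15075 genes tested.

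Libraries held 22230090 to 55902737 counts. Actn2 itself was at 2187 and 2703 CPM in the wild-type pair, 1693, 1546 and 1638 CPM in the heterozygotes and 2115, 1611 and 1791 CPM in the homozygotes, all 6 deletion libraries below both wild-type ones. With edgeR its log2 fold change was called in heterozygotes (-0.59, SE 0.16, adjusted p = 0.0193) but not in homozygotes (-0.41, SE 0.16, adjusted p = 0.0771). DESeq2 on the same libraries called it in both (adjusted p = 0.00149 in heterozygotes and 0.0342 in homozygotes). Without wild type 2 the edgeR log2 fold changes in heterozygotes and homozygotes were -0.40 and -0.22. After the correction for transcript properties given below they were -0.35 and -0.16, and neither passed (adjusted p = 0.120 and 0.476). Across genes, the correlation with deletion libraries was lower for wild type 2 than for wild type 1, at r = 0.927 to 0.935 against 0.957 to 0.966. The value for the wild-type pair was 0.952, and deletion libraries had 0.969 to 0.982 with each other. Because only 2 wild-type libraries exist, each gene's spread rests mostly on the deletion libraries, so p-values against wild type may be too small. They measure spread between these samples and no more, since the labels do not describe the animals further.

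In homozygous hearts 3 import genes rose (Tomm70a, Timm23 and Timm21) and 4 fell (Timm13, Timm10b, Tomm6 and Timm50). In heterozygous hearts 4 rose (Tomm70a, Timm23, Timm21 and Timm8a1) and 6 fell (Timm13, Timm10b, Tomm6, Timm50, Tomm34 and Tomm40). Both comparisons use the same wild-type libraries, so they are not independent of each other. Over all genes tested, 15.3% were called higher and 12.4% lower in homozygous hearts, and 15.2% and 12.8% in heterozygous hearts.

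Of 11 Tomm genes 1 was called higher and 1 lower in homozygotes (median log2 fold change -0.28), and 1 higher and 3 lower in heterozygotes (median -0.30). The heterozygous median is the value of Tomm6os itself (SE 0.57), the antisense RNA, which had few counts. The homozygous median is the value of Tomm40l, whose level is uncertain because of the exon overlap given below. Of 13 Timm genes tested 2 were called higher and 3 lower in homozygotes (median -0.039), and 3 higher and 3 lower in heterozygotes (median -0.020). The median over all genes was -0.034 in each comparison. As shares, 9.09% of the Tomm genes and 15.4% of the Timm genes were called higher in homozygotes and 9.09% and 23.1% lower. With so few genes, 1 gene moves a share by several percentage points. The medians depended on wild type 2. Without it the Tomm medians were -0.018 in homozygotes and 0.058 in heterozygotes. The Timm medians were then 0.0078 and -0.065, and those over all genes 0.017 and 0.026. The difference between outer and inner membrane genes was not tested.

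**Figure D1:**
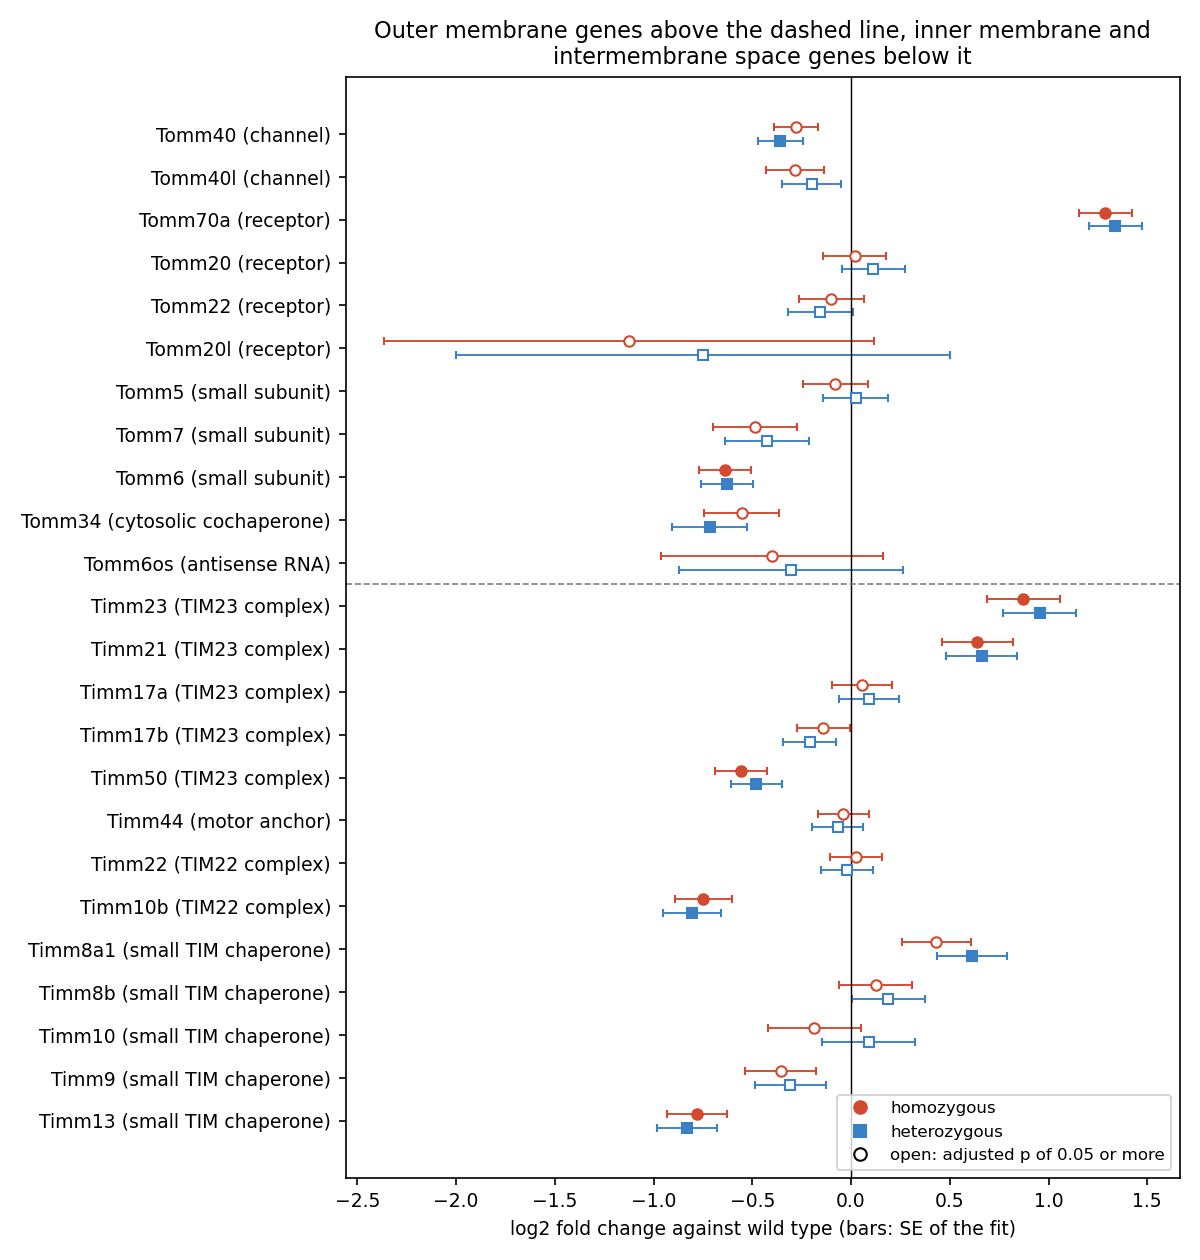
Log2 fold change against wild type (with bars for the SE of the fit) of the 24 import genes tested, grouped by role, in homozygous and heterozygous hearts, with filled symbols for adjusted p under 0.05. Tomm70a lies farthest toward higher levels at 1.29 and 1.34, and Timm13 at -0.78 and -0.83 is the lowest of the called genes.

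Among the receptors Tomm70a, which takes carriers and other proteins from cytosolic chaperones, had the largest fold change. Its level (ENSMUSG00000022752.9; mm10 chromosome 16, 57121703 to 57156705, plus strand) stood at 66.3 and 52.9 CPM in the wild-type pair, 159, 141 and 152 CPM in the heterozygotes and 141, 142 and 154 CPM in the homozygotes. The wild-type libraries lay below all 6 deletion libraries. Tomm70a rose 2.44-fold in homozygotes (log2 fold change 1.29, SE 0.13, adjusted p = 0.000283) and 2.53-fold in heterozygotes (1.34, SE 0.13, adjusted p = 0.000203). Under the 16 alternatives it kept direction and call, with log2 fold changes of 0.60 to 1.47 in homozygotes and 0.64 to 1.52 in heterozygotes.

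The other receptors did not pass. Tomm20, which binds presequences, was at 106 ± 25.9 CPM in the wild-type pair (SD, n = 2), 114 ± 9.24 CPM in the heterozygotes and 107 ± 9.46 CPM in the homozygotes (SD, n = 3 for both). Wild type 1 lay below and wild type 2 above all deletion libraries, so the mean of the pair fell among them. Tomm22, the central receptor that also organises the complex, was at 73.2 ± 18.2, 65.7 ± 7.71 and 68.3 ± 5.85 CPM in the same order, with wild type 2 above all other libraries. Tomm20l, a paralog of Tomm20, reached at most 0.771 CPM and had 0 counts in heterozygous 1 and homozygous 1.

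Per kilobase of transcript, the ratio of Tomm70a to Tomm20 was 0.624 and 0.351 in wild type 1 and 2. It was 1.07, 1.12 and 1.07 in the heterozygotes and 1.21, 1.04 and 1.11 in the homozygotes. All deletion libraries lay above both wild-type libraries. This and the other ratios given here pair genes whose levels were already known, and none was tested.

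Tomm40, the pore of the outer membrane (chromosome 7, 19701313 to 19715438, minus strand), was at 102 and 100.3 CPM in the wild-type pair, 78.4, 75.8 and 82.7 CPM in the heterozygotes and 90.2, 78.2 and 81.5 CPM in the homozygotes, without overlap. It fell in heterozygotes (log2 fold change -0.36, SE 0.11, adjusted p = 0.0365), and homozygotes were at -0.28 (SE 0.11, adjusted p = 0.0869). Leaving out any single library other than homozygous 1 ended the heterozygous call (adjusted p = 0.107 without wild type 2). Its paralog Tomm40l was at 85.7 ± 17.98, 74.7 ± 7.92 and 70.4 ± 3.33 CPM in wild type, heterozygotes and homozygotes and did not pass (adjusted p = 0.178 and 0.345 in homozygotes and heterozygotes), though without wild type 1 it fell in both (-0.48 and -0.39, adjusted p = 0.0196 and 0.0467). Exons of Tomm40l overlap Nr1i3 on the opposite strand over 64.3% of their length, and whether the counting used strand is unknown here, so its level is uncertain.

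Of the small TOM subunits 1 of 3 passed. Tomm6, which stabilises the channel complex (chromosome 17, 47686646 to 47688386, minus strand), was at 33.7 and 36.4 CPM in the wild-type pair, 23.9, 22.5 and 21.7 CPM in the heterozygotes and 20.5, 24.03 and 22.96 CPM in the homozygotes. Both wild-type libraries lay above all deletion libraries. Tomm6 fell by 0.64 on the log2 scale in homozygotes (SE 0.13, adjusted p = 0.00604) and by 0.63 in heterozygotes (SE 0.13, adjusted p = 0.00626). Its exons overlap the predicted gene Gm21981 on the same strand over 75.95% of their length and Tomm6os on the opposite strand over 19.4%, so reads may be shared. Tomm6os ranged from 0.513 to 2.04 CPM over the 8 libraries and did not pass.

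Tomm7, which modulates the stability of the complex, was at 69.02 and 119.8 CPM in the wild-type pair, 78.2, 66.5 and 66.4 CPM in the heterozygotes and 56.03, 72.8 and 73.3 CPM in the homozygotes. Wild type 2 alone stood above the rest. The homozygous and heterozygous log2 fold changes of -0.49 and -0.42 did not pass (adjusted p = 0.114 and 0.164), and the outcome depended on the wild-type library kept. Without wild type 1 both passed (-0.82 and -0.76, adjusted p = 0.00244 and 0.00401), while leaving out wild type 2 gave -0.0012 and 0.058 (adjusted p = 0.997 and 0.860). Tomm5 was at 99.9 ± 19.8 CPM in the wild-type pair (SD, n = 2), 102 ± 17.4 CPM in the heterozygotes and 94.5 ± 6.55 CPM in the homozygotes (SD, n = 3 for both), which overlapped.

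Tomm34, a cytosolic cochaperone rather than a membrane subunit (chromosome 2, 164053540 to 164071169, minus strand), was at 25.3 and 34.5 CPM in the wild-type pair, 15.1, 19.8 and 19.6 CPM in the heterozygotes and 20, 17.8 and 23.3 CPM in the homozygotes. It fell in heterozygotes (log2 fold change -0.72, SE 0.19, adjusted p = 0.0185) and was at -0.55 in homozygotes (SE 0.19, adjusted p = 0.0517). Leaving out heterozygous 1 or wild type 2 ended the call in heterozygotes (adjusted p = 0.0570 and 0.185), and homozygotes passed without wild type 1 or heterozygous 1 (adjusted p = 0.0124 and 0.0491).

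**Figure D2:**
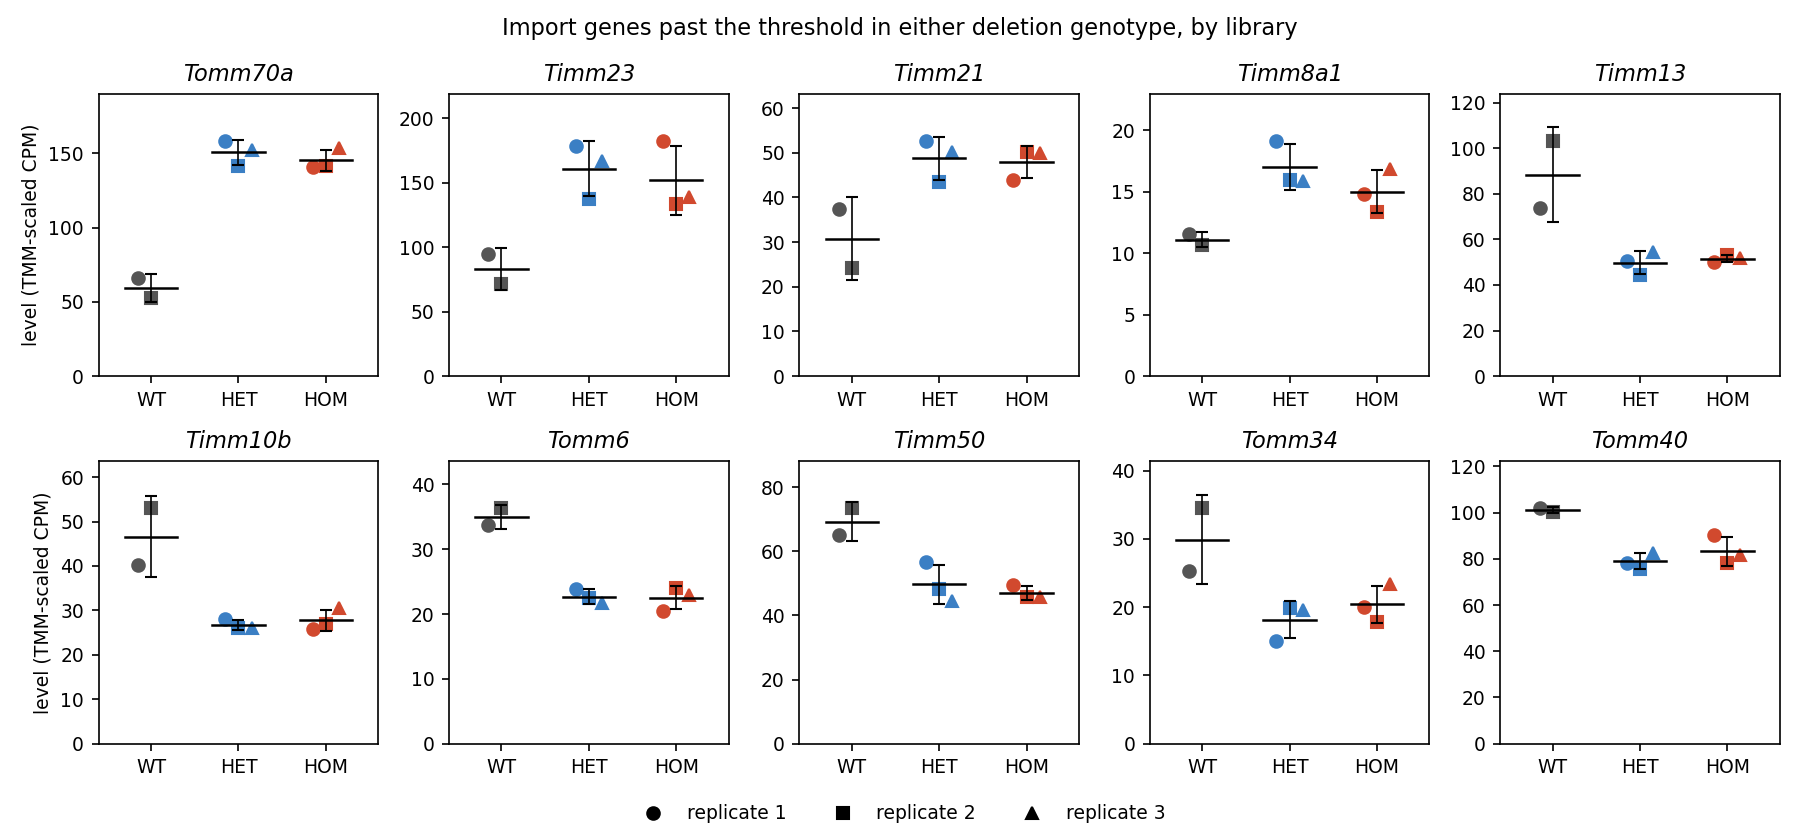
Level in TMM-scaled CPM (y axis, from 0) of the 10 import genes called in either deletion genotype, in wild type (WT), heterozygous (HET) and homozygous (HOM) hearts; each symbol is 1 library, with the mean and SD of the group. Wild-type libraries lie below all deletion libraries for Tomm70a, Timm23, Timm21 and Timm8a1 and above them for the other 6 genes. The genes were picked by their call against these same wild-type libraries, so the separation adds no evidence to the call. Its share over all genes was not computed.

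In the TIM23 complex the subunits differed in opposite directions. Timm23, the channel-forming subunit (ENSMUSG00000013701.13, chromosome 14, 32180162 to 32201898, minus strand), was at 94.5 and 71.6 CPM in the wild-type pair, 178, 138 and 167 CPM in the heterozygotes and 183, 134 and 139 CPM in the homozygotes, without overlap. Timm23 rose 1.83-fold in homozygotes (log2 fold change 0.87, SE 0.18, adjusted p = 0.00702) and 1.94-fold in heterozygotes (0.96, SE 0.19, adjusted p = 0.00442). It kept its call under the 16 alternatives, with log2 fold changes of 0.72 to 1.13 and 0.80 to 1.19.

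Timm50, the receptor that takes presequences from the outer membrane (chromosome 7, 28305516 to 28312072, minus strand), was at 65.01 and 73.5 CPM in the wild-type pair, 56.5, 48.1 and 44.5 CPM in the heterozygotes and 49.6, 45.7 and 45.8 CPM in the homozygotes. It fell, with log2 fold changes of -0.56 in homozygotes (SE 0.13, adjusted p = 0.0109) and -0.48 in heterozygotes (SE 0.13, adjusted p = 0.0211). Without wild type 2 neither call was kept (adjusted p = 0.0792 and 0.137), and leaving out heterozygous 2 or 3 also ended the one in heterozygotes (adjusted p = 0.0734 and 0.0797). Per kilobase, the ratio of Timm23 to Timm50 was 1.88 and 1.26 in the wild-type pair and 3.69 to 4.85 in the 6 deletion libraries.

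Timm21, which links TIM23 to the TOM complex and to the respiratory chain (chromosome 18, 84946191 to 84951524, minus strand), was at 37.3 and 24.3 CPM in the wild-type pair, 52.7, 43.4 and 50.2 CPM in the heterozygotes and 43.9, 50.1 and 49.8 CPM in the homozygotes. It rose by 0.64 in homozygotes (SE 0.18, adjusted p = 0.0238) and 0.66 in heterozygotes (SE 0.18, adjusted p = 0.0203). Both calls ended without wild type 2 (adjusted p = 0.122 and 0.0989). So did the homozygous call without homozygous 2 or 3 (adjusted p = 0.0660 and 0.0736) and the heterozygous call without heterozygous 3 (adjusted p = 0.0557).

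The paralogs Timm17a and Timm17b, alternative partners of Timm23 in the channel, did not pass. Timm17a was at 126 and 126 CPM in the wild-type pair, 134 ± 25.4 CPM in the heterozygotes and 131 ± 7.24 CPM in the homozygotes (SD, n = 3 for both). Timm17b, on the X chromosome, was at 27.8 ± 2.99 CPM in the wild-type pair (SD, n = 2) and 24.03 ± 1.75 and 25.2 ± 1.15 CPM in heterozygotes and homozygotes. Per kilobase, Timm17a stood above Timm17b in every library, by a ratio of 1.37 to 2.31. Timm44, which tethers the import motor to the channel, was at 116 ± 13.3, 111 ± 7.76 and 113 ± 10.1 CPM in wild type, heterozygotes and homozygotes.

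**Figure D3:**
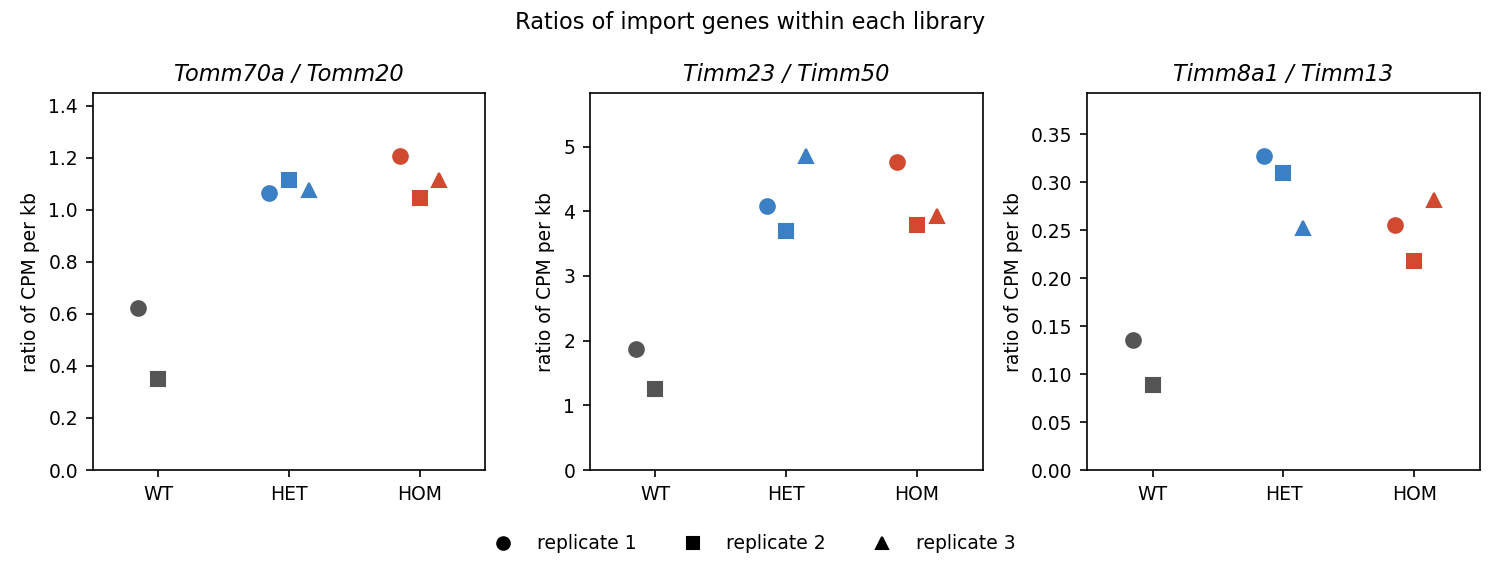
Ratio of CPM per kilobase of transcript (y axis, from 0) of Tomm70a to Tomm20, Timm23 to Timm50 and Timm8a1 to Timm13 within each library, in wild type (WT), heterozygous (HET) and homozygous (HOM) hearts. In each panel the 6 deletion libraries lie above both wild-type libraries. For Timm23 to Timm50 they span 3.69 to 4.85 against 1.88 and 1.26. The pairs were picked with the levels of these genes in the same libraries known, so the separation adds no evidence to the calls. The ratios are not corrected for transcript properties and were not tested.

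In the TIM22 complex, which inserts metabolite carriers, the channel gene Timm22 was at 32.3 ± 3.47 CPM in the wild-type pair, 31.9 ± 3.02 CPM in the heterozygotes and 32.9 ± 1.05 CPM in the homozygotes and did not pass. Timm10b, the small TIM bound to this complex (chromosome 7, 105640056 to 105643637, plus strand), was at 40.2 and 53.02 CPM in the wild-type pair, 28.04, 25.95 and 26.03 CPM in the heterozygotes and 25.8, 26.99 and 30.5 CPM in the homozygotes, without overlap. It fell by 0.75 in homozygotes (SE 0.15, adjusted p = 0.00494) and 0.81 in heterozygotes (SE 0.15, adjusted p = 0.00331). Its exons share 10.5% of their length with the predicted gene Gm45799 on the same strand.

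A further TIM22 subunit, Timm29, stands in the table under its older symbol 1810026J23Rik, outside the symbol rule, and was looked up after the values of the others were seen. No transcript properties were matched to the older symbol, so this gene was not part of the corrected fit given below. The level of 1810026J23Rik was 68.2 and 52.4 CPM in the wild-type pair, 100.2, 87.3 and 85.4 CPM in the heterozygotes and 110.1, 85.6 and 98.95 CPM in the homozygotes. It rose in homozygotes (0.70, SE 0.16, adjusted p = 0.00862) and in heterozygotes (0.59, SE 0.16, adjusted p = 0.0178), the latter not without wild type 2 (adjusted p = 0.0929).

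The small TIM chaperones carry hydrophobic precursors through the intermembrane space as paired complexes, Timm9 with Timm10 and Timm8 with Timm13. Timm13 (chromosome 10, 80899450 to 80900969, minus strand) was at 73.6 and 103 CPM in the wild-type pair, 50.5, 44.5 and 54.3 CPM in the heterozygotes and 49.95, 52.96 and 51.7 CPM in the homozygotes. Both wild-type libraries lay above all others. Timm13 fell by 0.78 in homozygotes (SE 0.15, adjusted p = 0.00472) and 0.83 in heterozygotes (SE 0.15, adjusted p = 0.00333).

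Its partner Timm8a1, known from the human deafness-dystonia syndrome (chromosome X, 134537256 to 134541865, minus strand), was at 11.5 and 10.7 CPM in the wild-type pair, 19.1, 15.97 and 15.9 CPM in the heterozygotes and 14.8, 13.3 and 16.9 CPM in the homozygotes, without overlap. It rose in heterozygotes (log2 fold change 0.61, SE 0.18, adjusted p = 0.0254) and was at 0.43 in homozygotes (SE 0.17, adjusted p = 0.0892). Leaving out wild type 2 or heterozygous 1 ended the call (adjusted p = 0.0907 and 0.0574). The gene is X-linked, and Xist was high (567 to 1219 CPM) in wild type 2, heterozygous 2 and 3 and homozygous 2, and at 1.74 to 6.22 CPM in the other 4. The part of sex in this result was not tested. The ratio of Timm8a1 to Timm13 per kilobase was 0.135 and 0.0890 in the wild-type pair and 0.217 to 0.327 in the deletion libraries. Timm8b, the other Timm8 paralog, was at 68.9 ± 12.1 CPM in the wild-type pair (SD, n = 2), 78.7 ± 17.4 CPM in the heterozygotes and 75.2 ± 5.77 CPM in the homozygotes (SD, n = 3 for both) and did not pass.

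Timm9 was at 19.8 and 23.5 CPM in the wild-type pair, 18.6, 18.9 and 14.98 CPM in the heterozygotes and 14.6, 16.7 and 19.6 CPM in the homozygotes. The groups narrowly did not overlap, and the log2 fold changes of -0.36 and -0.31 in homozygotes and heterozygotes did not pass (adjusted p = 0.163 and 0.230). Timm10 was at 32.7 and 61.7 CPM in the wild-type pair, 50.3 ± 8.11 CPM in the heterozygotes and 41.5 ± 3.42 CPM in the homozygotes (SD, n = 3 for both). The direction of Timm10 turned with the wild-type library kept: in homozygotes it was -0.56 without wild type 1 and 0.38 without wild type 2. In heterozygotes it was -0.29 without wild type 1 and 0.65 without wild type 2, so the sign turned in both genotypes.

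Homozygous against heterozygous, 0 of the 24 import genes passed with edgeR, and 0 had an unadjusted p under 0.05. The smallest p-values belonged to Timm10 (log2 fold change -0.27, SE 0.21) and, upward, Tomm34 (0.16, SE 0.17). Over all 15075 genes 0 passed (0%) with edgeR, 411 had an unadjusted p under 0.05, and DESeq2 called 1 higher and 2 lower, none of them an import gene. The summed level of the 11 Tomm genes was 606 and 768 CPM in the wild-type pair and 643 to 747 CPM in the deletion libraries. That of the 14 Timm genes was 747 and 792 CPM and 729 to 899 CPM. Both sums overlapped between wild type and deletion.

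Per kilobase of transcript, the wild-type level was highest for Tomm5 (135 CPM per kb), Timm8b (133), Timm10b (94.3), Tomm7 (83.9), Timm13 (72.2) and Timm23 (70.8). Apart from Timm8a2, Tomm20l and Tomm6os it was lowest for Timm8a1 (7.81), Tomm70a (9.99), Timm22 (11.5) and Timm17b (11.7). In homozygotes Tomm70a was at 24.4 CPM per kb beside 21.8 for Tomm20, and Timm23 at 129.5 beside 128 for Tomm5 (SD 22.9 and 8.87). The last pair does not differ beyond its spread, while Tomm70a and Tomm20 (SD 1.21 and 1.93) did not overlap there. These levels rest on 1 transcript per gene.

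The fold changes of the members varied with properties of their transcripts. Across the 23 members with these properties, the homozygous log2 fold change had a Spearman rho of -0.65 with GC content, 0.45 with 3' UTR length and 0.45 with transcript length. Across all 13910 such genes tested the values were -0.43, 0.37 and 0.41. These describe genes that share the same libraries. Tomm70a has a GC content of 40.7% and a 3' UTR of 3969 bases, Timm13 58.2% and 711 bases. A fit with smooth terms of the 3 properties removed from each library called 9.09% of genes higher and 5.75% lower in homozygotes, and 8.44% and 5.57% in heterozygotes.

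After this correction Tomm70a rose by 0.63 and 0.66 in homozygotes and heterozygotes (adjusted p = 0.00640 and 0.00551) and Timm23 by 1.10 and 1.15 (adjusted p = 0.00666 and 0.00592). Timm8a1 rose in both (0.59 and 0.75, adjusted p = 0.0400 and 0.0164), as did Timm8b (0.59 and 0.60, adjusted p = 0.0240 and 0.0238), and Timm10 in heterozygotes (0.63, adjusted p = 0.0260). Timm17a, with a 3' UTR of 6705 bases, was called lower in the corrected fit (-0.62 and -0.59, adjusted p = 0.0305 and 0.0370). Its uncorrected values were 0.054 and 0.091, so the corrected ones are relative to the trend of genes with like properties. With the replicate block added to the correction it did not pass (adjusted p = 0.0748 and 0.0785).

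The genes that fell in the uncorrected fit did not pass after it. Corrected values in homozygotes and heterozygotes were -0.22 and -0.24 for Timm13 (adjusted p = 0.241 and 0.203), -0.059 and -0.14 for Timm10b, -0.13 and -0.13 for Tomm6, -0.034 and 0.063 for Timm50, -0.23 and -0.36 for Tomm34 and 0.25 and 0.20 for Tomm40. Timm21 did not pass either (0.39 and 0.36). In all, 4 members were called higher and 1 lower in homozygotes, and 5 and 1 in heterozygotes, of 23. With wild type 2 also left out, Tomm70a, Timm23 and Timm10 were called higher in both genotypes (adjusted p = 0.0223, 0.0278 and 0.0371 in homozygotes) and no other member was called.

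**Figure D4:**
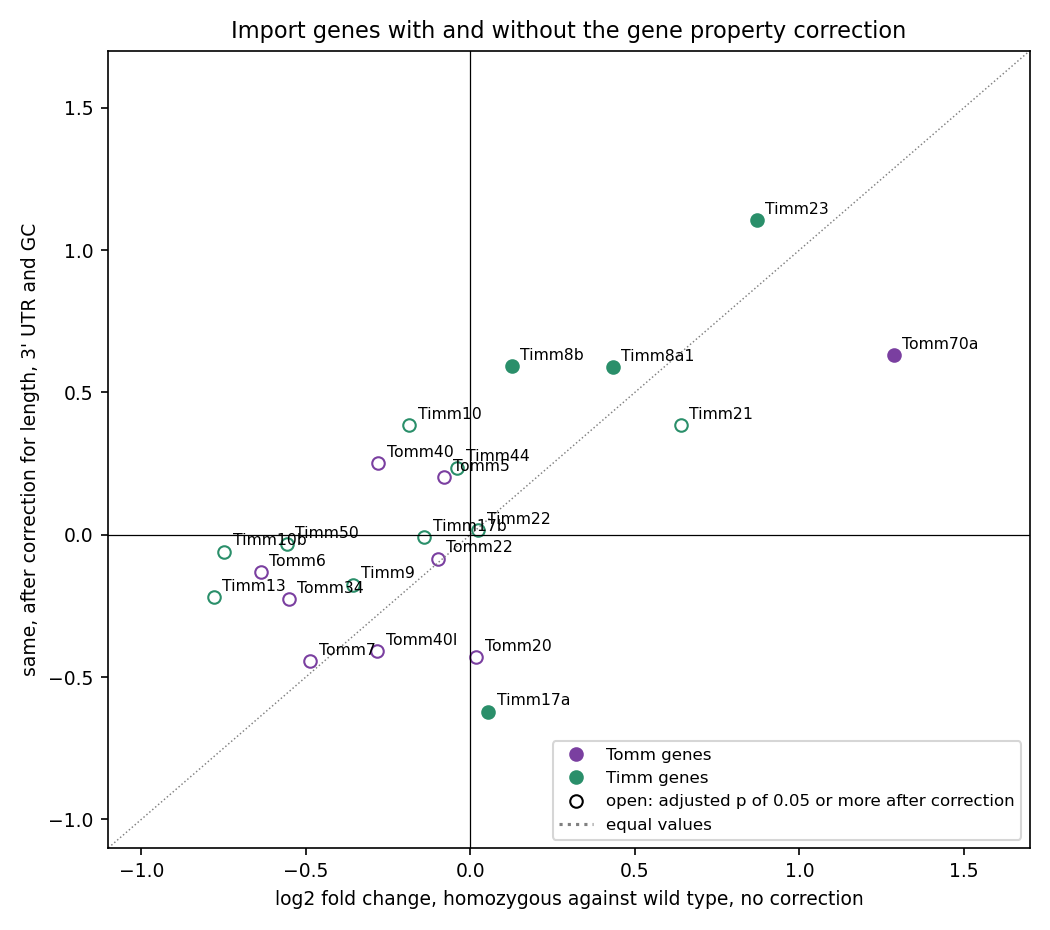
Log2 fold change in homozygous hearts against wild type without (x axis) and with (y axis) the correction for GC content, 3' UTR length and transcript length, for the Tomm and Timm genes with all 3 properties; Tomm20l, with few counts, is left out. Tomm70a (1.29 and 0.63) and Timm23 (0.87 and 1.10) stay above 0 on both axes, while Timm13, Timm10b, Tomm6 and Timm50 lie closer to 0 on the y axis than on the x axis.

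Other genes of the import route, a list of 28, were read from the same fit: 5 rose and 4 fell in homozygotes, and 4 rose and 5 fell in heterozygotes, with median log2 fold changes of 0.12 and 0.10. In homozygotes that is 17.9% higher and 14.3% lower, beside 15.3% and 12.4% of all genes. Pmpca, a subunit of the protease that cuts presequences, was at 85.02 and 74.1 CPM in the wild-type pair, 120.1, 127 and 134 CPM in the heterozygotes and 154, 136 and 150.2 CPM in the homozygotes, and rose by 0.88 in homozygotes (SE 0.12, adjusted p = 0.000996) and 0.68 in heterozygotes (adjusted p = 0.00328). Xpnpep3, an aminopeptidase that trims imported proteins, rose by 1.15 and 1.22 (adjusted p = 0.00265 and 0.00182), and the chaperonin Hspd1 by 0.55 and 0.60 (adjusted p = 0.0115 and 0.00749). Grpel1, the nucleotide exchange factor of the import motor, rose in homozygotes (0.44, adjusted p = 0.0271) and was at 0.34 in heterozygotes (adjusted p = 0.0701).

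The metaxins Mtx1 and Mtx2, partners of the machinery that assembles outer membrane proteins, went in opposite directions. A further metaxin, Mtx3, did not pass in homozygotes or heterozygotes (0.17 and 0.22, adjusted p = 0.480 and 0.370). Mtx2 was at 76.1 and 59.9 CPM in the wild-type pair, 155, 119 and 138 CPM in the heterozygotes and 117, 135 and 130.3 CPM in the homozygotes, and rose by 0.90 and 1.01 in homozygotes and heterozygotes (adjusted p = 0.00270 and 0.00143). Mtx1 was at 32.04 and 43.98 CPM in the wild-type pair, 21.9, 19.9 and 25.8 CPM in the heterozygotes and 21.3, 18.02 and 24.1 CPM in the homozygotes, and fell by 0.85 and 0.75 (adjusted p = 0.00773 and 0.0128). After the correction Mtx1 was at -0.29 in homozygotes and -0.20 in heterozygotes and did not pass (adjusted p = 0.272 and 0.478). Samm50, the barrel of the assembly machinery, fell in heterozygotes (-0.57, adjusted p = 0.0180) and was at -0.38 in homozygotes (adjusted p = 0.0866). The outer membrane protein Mtch1 fell by 0.67 and 0.58 in homozygotes and heterozygotes, Dnlz, which keeps mitochondrial Hsp70 soluble, by 0.70 and 0.67, and Romo1, an inner membrane protein tied to TIM23, by 0.66 and 0.74 (adjusted p = 0.0490 and 0.0315).

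Without wild type 2 the list had 5 genes higher and 1 lower in homozygotes and 5 and 0 in heterozygotes, beside 10.1% of all genes higher and 3.58% lower in homozygotes and 10.5% and 4.62% in heterozygotes in that fit. As shares the list had 17.9% higher and 3.57% lower in homozygotes, the latter at the background. The falls of Mtx1, Dnlz, Romo1 and, in heterozygotes, Mtch1 and Samm50 ended there (adjusted p of 0.0554 to 0.552). After the correction 5 were higher and 1 lower in each genotype (17.9% and 3.57%, beside 9.09% and 5.75% of all genes in homozygotes). Pmpca, Xpnpep3, Mtx2 and Hspd1 rose in both (adjusted p of 0.00243 to 0.0386), and so did Hspe1, the cochaperonin of Hspd1 (0.61 and 0.62, adjusted p = 0.0158 and 0.0155). The gene that fell was Dnajc15, a cochaperone of the motor, in homozygotes (-0.83, adjusted p = 0.0211) and Samm50 in heterozygotes (-0.63, adjusted p = 0.0225).

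Beside the import genes stand 2 larger families of nuclear genes for mitochondrial proteins. Of 36 subunits of complex I 1 was called higher and 19 lower in homozygotes (median log2 fold change -0.65), and of 78 mitochondrial ribosomal proteins 3 higher and 27 lower (median -0.31). The lower calls are 52.8% and 34.6% of these lists, beside 12.4% of all genes. Without wild type 2, 5 complex I subunits and 6 mitochondrial ribosomal proteins were called lower, or 13.9% and 7.69% beside 3.58% of all genes, with medians of -0.21 and -0.12. After the correction 2 and 11 were lower, or 5.56% and 14.1% beside 5.75% of all genes, with medians of -0.18 and -0.029, beside -0.18 for the Tomm and 0.015 for the Timm genes. The difference between these families and the import genes was not tested.

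**Figure D5:**
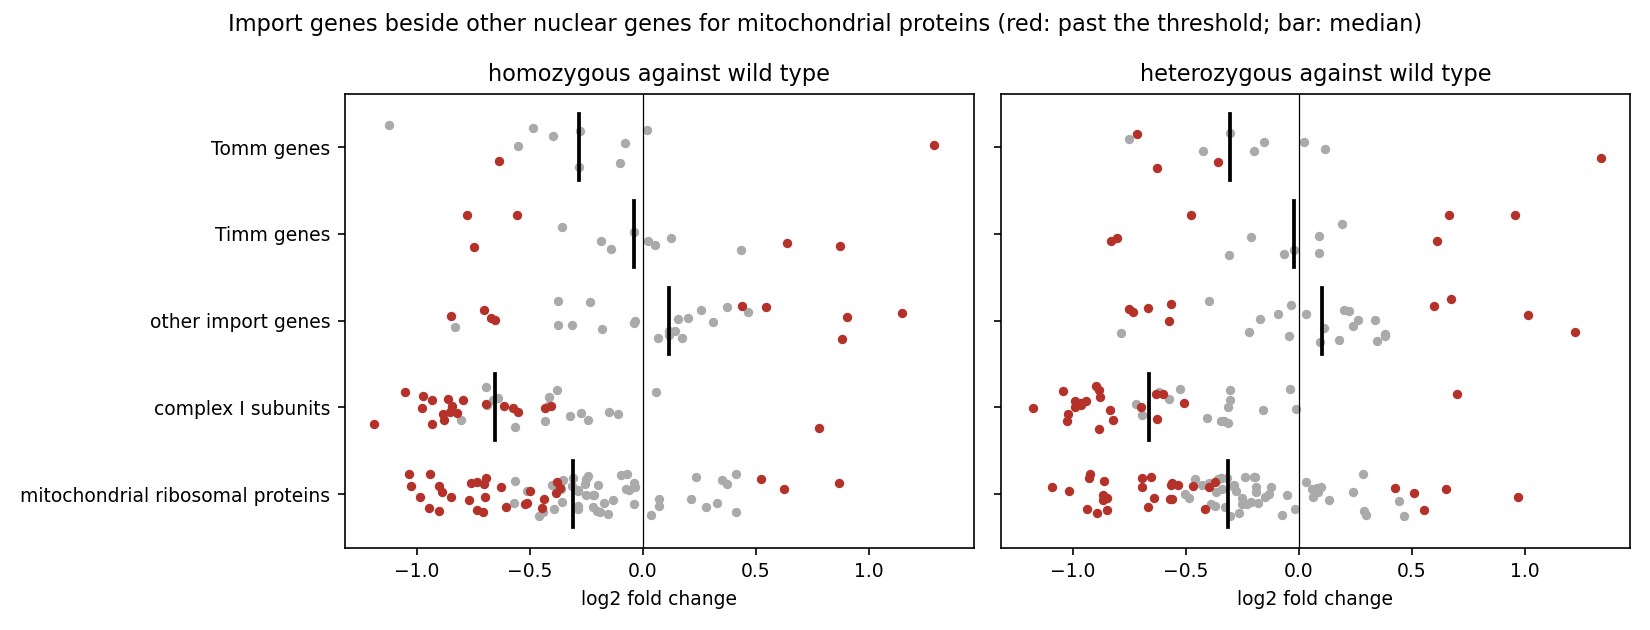
Log2 fold change of single genes in homozygous and heterozygous hearts against wild type, for the Tomm genes, the Timm genes, the list of other import genes, complex I subunits and mitochondrial ribosomal proteins; the bar is the median of each list. In homozygous hearts the medians of complex I (-0.65) and mitochondrial ribosomal proteins (-0.31) lie below that of the Timm genes (-0.039). The median of the Tomm genes (-0.28), which is the value of Tomm40l with its uncertain level, lies next to that of the mitochondrial ribosomal proteins. In the fit without wild type 2, not drawn here, the Tomm and Timm medians in homozygotes were -0.018 and 0.0078.

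Markers of heart cell types were summed in the same libraries. Cardiomyocyte markers (8 genes, none at 0) reached 82887 to 95523 CPM in wild type, 72840 to 75929.6 CPM in heterozygotes and 72388 to 79514 CPM in homozygotes. Of these genes 2 were called higher and 2 lower in homozygotes, and 2 higher and 3 lower in heterozygotes. Atrial markers (5 genes) were at 327 to 584, 98.8 to 421 and 107 to 366 CPM, with 4 called lower in each deletion genotype and Sln at 0 in some libraries. Endothelial markers (6 genes) were at 1055 to 1067, 729.5 to 863 and 752 to 976 CPM, with 2 called lower in each. Smooth muscle and pericyte markers (6 genes) were at 1207 to 1505, 1052 to 1359 and 1039 to 1182 CPM, with 3 called lower in homozygotes and 4 in heterozygotes. Fibroblast markers (7 genes) had 0 calls with edgeR, at 1364 to 2392, 1568 to 1884 and 1348 to 1821 CPM. Macrophage markers (6 genes) had 1 higher and 2 lower in homozygotes, adipocyte markers 1 lower of 2 tested, and the haemoglobin genes among the red blood cell markers were listed at 0 in every library. Beside these counts, 15.3% of all genes were called higher and 12.4% lower in homozygotes, and 15.2% and 12.8% in heterozygotes. The marker calls were not recomputed without wild type 2 or with the correction. The part of these cell types in the results for the import genes was not tested. In bulk heart RNA fewer cells of a type and less RNA per cell cannot be told apart.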

How the data were processed

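Bulk RNA sequencing of 8 mouse hearts was used. The authors deposited raw counts per gene symbol. The submitters' processing notes name Trimmomatic 0.36, HISAT2, Subread, featureCounts, DESeq2 and the mm10 build; annotation, strand and the treatment of multi-mapping reads are unknown here.

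In R 4.3.3, edgeR 4.0.16 kept 15075 of 24516 genes (filterByExpr on genotype), scaled by TMM and fitted all 8 libraries in 1 robust quasi-likelihood model, with two-sided tests, Benjamini-Hochberg adjustment across those genes and a threshold of 0.05. Alternatives were DESeq2 size factors, no filter, DESeq2 1.42.0, only the groups compared, a replicate block, each library left out, and a correction that takes from each library's log2 CPM (prior count 2) its spline trends (4 df per property) on length, 3' UTR and GC content of 1 GENCODE vM21 transcript per gene, for 13910 genes. The scripts were tested on simulated counts. Members and lists were chosen with earlier results of these data known. All members are named, the 12 with the smallest p in homozygotes by library; of the 28 other import genes, those past the threshold are named.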

Additional observations from a re-analysis of the deposited data

How the results depend on the processing

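Each value was recomputed under 16 alternatives. Of 762 recomputed fold changes of import genes 618 kept direction and side of the threshold. With the sign kept, 57 lost a call and 18 gained one. The other 69 changed sign, some of them with a call lost or gained as well. None of these 3 changes befell Tomm70a or Timm23. Leaving out a wild-type library leaves 1, whose spread is then assumed to be that of the other groups. The causes of the changes were not tested. Low counts limit what can be said of Timm8a2, Tomm20l and Tomm6os.

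Deviations from the group means of the 7 same-numbered pairs correlated at -0.02 to 0.18, over 0.1 in 2. These were heterozygous with homozygous 1 (0.177) and heterozygous with homozygous 2 (0.138). The differently numbered heterozygous 3 and homozygous 2 were at 0.135. With 2 wild-type libraries the deviations of the pair mirror each other, so pairs with wild type carry little information. Whether replicate numbers pair the samples cannot be decided from these values. With the replicate block 2 Tomm genes were lower in homozygotes (1 without it), and Timm50, Timm8a1 and Tomm40 were not called in heterozygotes (adjusted p = 0.0580, 0.0542 and 0.0679).

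Homozygous against wild type, 1 Tomm gene was lower, against 2 with DESeq2, 0 in the 3 fits with the correction (alone, without wild type 2, or with the replicate block) and 1 to 4 with a library left out. In those 3 fits 1, 0 and 0 Timm genes were lower (3 uncorrected), 1265, 690 and 991 of all genes higher (2308 uncorrected) and 800, 164 and 571 lower (1872 uncorrected). Heterozygous against wild type they gave 0, 0 and 0 Tomm genes lower (3 uncorrected), 1, 0 and 0 Timm genes lower (3 uncorrected), 1174, 658 and 911 of all genes higher (2295 uncorrected) and 775, 176 and 517 lower (1924 uncorrected). With only the groups compared, 1 Timm gene was higher in heterozygotes, in place of 3, and 1097 of all genes were lower. With a library left out, Timm genes higher in homozygotes numbered 1 to 2, Tomm genes lower in heterozygotes 1 to 4, and all genes lower 558 to 2607 in homozygotes and 719 to 2617 in heterozygotes, the fewest without wild type 2. Homozygous against heterozygous, 1 gene was higher and 1 lower with no filter, 1 and 2 with DESeq2, 0 and 1 with the correction alone or without wild type 2, and 0 to 1 lower with a library left out.

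Log2 fold changes that changed sign under the correction alone, without wild type 2 and with the replicate block were, in homozygotes, 0.39, 0.65 and 0.42 for Timm10, -0.62, -0.48 and -0.57 for Timm17a, 0.24, 0.12 and 0.23 for Timm44, -0.43, -0.046 and -0.44 for Tomm20, 0.25, 0.21 and 0.25 for Tomm40, 0.20, 0.24 and 0.22 for Tomm5. In heterozygotes they were -0.59, -0.45 and -0.56 for Timm17a, 0.20, 0.081 and 0.20 for Timm44, 0.063, 0.092 and 0.11 for Timm50, 0.20, 0.15 and 0.20 for Tomm40. Tomm20 in heterozygotes was -0.35 alone and -0.34 with the block, and Timm50 in homozygotes 0.00059 without wild type 2 and 0.013 with the block. Corrected and without wild type 2, homozygotes were at 0.14 for Timm17b, -0.042 for Timm22, 0.20 for Tomm22, 0.024 for Tomm34, and heterozygotes at 0.071 for Timm17b, 0.11 for Tomm22, 0.028 for Tomm40l. With the replicate block and no correction Tomm20 in homozygotes was -0.00032.

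With 1 library left out, homozygous values whose sign changed ranged from -0.56 to 0.38 for Timm10, -0.24 to 0.0078 for Timm17b, -0.048 to 0.14 for Timm22, -0.12 to 0.089 for Timm44, -0.036 to 0.35 for Timm8b, -0.20 to 0.33 for Tomm20, -0.33 to 0.21 for Tomm22, -0.26 to 0.17 for Tomm5, -0.71 to 0.056 for Tomm6os. Heterozygous ones ranged from -0.29 to 0.65 for Timm10, -0.034 to 0.22 for Timm17a, -0.10 to 0.10 for Timm22, -0.15 to 0.061 for Timm44, -0.11 to 0.42 for Tomm20, -0.38 to 0.15 for Tomm22, -0.39 to 0.063 for Tomm40l, -0.16 to 0.27 for Tomm5, -0.62 to 0.15 for Tomm6os, -0.76 to 0.058 for Tomm7.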
